A study of Mus musculus with 16 samples.

Results

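The acetylcholine receptor (AChR) and the genes that gather it under the nerve terminal were followed in *gastrocnemius* muscle of HSALR mice, a model of Myotonic Dystrophy type I. They were *Chrna1*, *Chrnb1*, *Chrnd*, *Chrne* and *Chrng*, which encode the alpha, beta, delta, epsilon and gamma subunits of the muscle receptor, and the endplate organizers *Agrn*, *Lrp4*, *Musk*, *Dok7* and *Rapsn*. These 10 genes were taken by name from the 24454 genes of the counts table, and all 10 were among the 15487 genes that passed the filter on low counts. RNA-seq was done at 3 months of age on 1 library per mouse, in 4 groups. HSALR mice (line LR20b, homozygous) carry a human skeletal actin transgene with a long CTG repeat that is transcribed in skeletal muscle only, and FVB/N mice, the background strain without the transgene, were the controls. Mice of both genotypes had received vehicle (n = 3 control, n = 5 HSALR) or AICAR, an activator of AMP-activated protein kinase, at 500 mg/kg for 7 days (n = 3 control, n = 5 HSALR). All HSALR mice came from a single transgenic line, so that the repeat and the insertion of the transgene cannot be told apart. The table lists mouse genes, and the human transgene was not used to check the genotype.

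The adult receptor holds alpha, beta, delta and epsilon subunits, and the fetal receptor holds gamma in place of epsilon. Agrin, released by the motor nerve, binds LRP4 on the muscle fibre, which activates the receptor tyrosine kinase MuSK together with its cytoplasmic partner DOK7, and rapsyn then ties the receptors to the cytoskeleton. In innervated fibres these genes are transcribed mainly by the few nuclei that lie under the endplate, while loss of nerve activity opens several of them, and *Chrng* above all, in nuclei along the whole fibre. Myogenic factors act on such genes through E-boxes, and ETS factors downstream of neuregulin through N-boxes.

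The upstream sequences of *Chrna1*, *Chrne* and *Chrng* are shown because *Chrna1* is the subunit with the largest difference between genotypes and because *Chrne* and *Chrng* are the adult and fetal alternatives. They are from RefSeq on GRCm38.p6, the assembly called mm10, and hold only bases before the annotated gene. Capitals mark E-boxes (CANNTG) and the N-box (CCGGAA or its reverse complement). They lie at chr2:73580339-73580538 on the minus strand for *Chrna1*, at chr11:70619214-70619394 on the minus strand for *Chrne* and at chr1:87205611-87205810 on the plus strand for *Chrng*.
Chrna1: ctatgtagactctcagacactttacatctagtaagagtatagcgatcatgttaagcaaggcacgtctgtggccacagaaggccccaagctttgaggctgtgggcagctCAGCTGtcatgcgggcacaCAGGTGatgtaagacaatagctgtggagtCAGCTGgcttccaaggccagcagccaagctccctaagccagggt
Chrne: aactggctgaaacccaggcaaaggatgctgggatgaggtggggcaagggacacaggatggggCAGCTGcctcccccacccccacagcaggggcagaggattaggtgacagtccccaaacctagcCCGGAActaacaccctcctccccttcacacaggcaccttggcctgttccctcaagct
Chrng: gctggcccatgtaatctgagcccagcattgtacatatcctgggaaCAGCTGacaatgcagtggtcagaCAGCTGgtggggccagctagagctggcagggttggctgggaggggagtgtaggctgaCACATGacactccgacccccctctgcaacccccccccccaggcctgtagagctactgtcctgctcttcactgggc
Positions are counted back from the start site of each promoter window, and the base before it is -1. For *Chrna1* and *Chrng* this start is the first base of the annotated gene, so the printed bases end at -1. For *Chrne* it lies inside the annotated gene, so the printed bases end at -20. *Chrna1* held E-boxes starting at -92, -73 and -44, *Chrng* at -155, -132 and -75, and *Chrne* a single E-box at -138 and an N-box at -76. A promoter sequence was at hand for 7 of the 10 genes, and the 250 bases before the start were searched on both strands. *Dok7* and *Agrn* have 2 annotated starts each, which gives 9 windows. Of these 9 windows 7 held an E-box, 4 held the E-box CAGCTG and 1, that of *Chrne*, held an N-box, and the windows without an E-box were 1 of *Dok7* and 1 of *Agrn*. Of 32851 mouse promoters searched over the same length, 66.2% held an E-box, 13.0% held CAGCTG and 12.0% held an N-box, so an E-box alone sets these genes little apart. A match in the letters is not evidence that a factor binds there.

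The receptor genes lie on 3 chromosomes. *Chrnd* (chr1:87190597-87200070) and *Chrng* (chr1:87205811-87211835) are neighbours on the plus strand, *Chrnb1* (chr11:69784036-69795966) and *Chrne* (chr11:70614883-70619213) lie on the minus strand of chromosome 11, and *Chrna1* (chr2:73563281-73580338) on that of chromosome 2. The organizers *Lrp4* (chr2:91457456-91513901) and *Rapsn* (chr2:91035472-91045729) lie close to each other on chromosome 2, *Musk* (chr4:58285729-58377848) and *Agrn* (chr4:156165290-156197533) on chromosome 4 and *Dok7* (chr5:35056571-35087839) on chromosome 5. Counts covered all exons of each gene. *Rapsn* shares 4 exon bases with *Gm13778* on the other strand, and whether the counting used the strand is not given in the sources used here.

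Between 64890014 and 81987726 reads per library were counted on genes. Normalized CPM, the unit of all levels below, are counts scaled to library size with TMM factors. *Chrng* had 12 to 109 reads per library and the other genes 274 to 7539, so that counting error is largest for *Chrng*. Markers of muscle fibres were abundant in every library, with a sum of 1.015e+05 to 1.601e+05 normalized CPM over 6 genes. Of 5 motor neuron markers, 2 had no read in any library and the sum of all 5 was at most 0.433 normalized CPM. Epidermal RNA set 6 libraries apart (S450 of the vehicle-treated controls, S448 of the AICAR-treated controls, and S452, S453, S458 and S459 of the vehicle-treated HSALR mice), with 2.98 to 32.2 normalized CPM of the keratin gene *Krt14* against at most 0.0835 in the other 10. The numbers of the 10 genes that passed each test are therefore also given without these 6 libraries, which leaves 2, 2, 1 and 5 mice in the control vehicle, control AICAR, HSALR vehicle and HSALR AICAR groups. A lone mouse is then assumed to vary like the other groups.

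After vehicle, *Chrna1* and *Musk* were 2.37- and 2.69-fold higher in HSALR compared to control muscle, *Chrnb1* and *Chrne* were 1.56- and 1.55-fold higher, and *Agrn* was lower. These 5 of the 10 genes passed the test (edgeR quasi-likelihood test, Benjamini-Hochberg adjusted over all genes), 4 as higher and 1 as lower. Of all 15487 genes tested, 26.9% passed in this comparison, 15.4% as higher and 11.5% as lower. The groups of mice did not overlap for 6 of the 10 genes, against 29.7% of all genes. The median log2 fold change was 0.60 over the 10 genes, 0.64 over the 5 subunits and 0.26 over the 5 organizers, and 0.01 over all genes. The fits without the 6 libraries with epidermal RNA kept *Chrna1* and *Musk* past the threshold, and *Chrnb1* (log2 fold change 0.49, adjusted p = 0.357), *Chrne* (0.39, adjusted p = 0.402) and *Agrn* (-0.33, adjusted p = 0.222) did not pass.

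**Figure D1:**
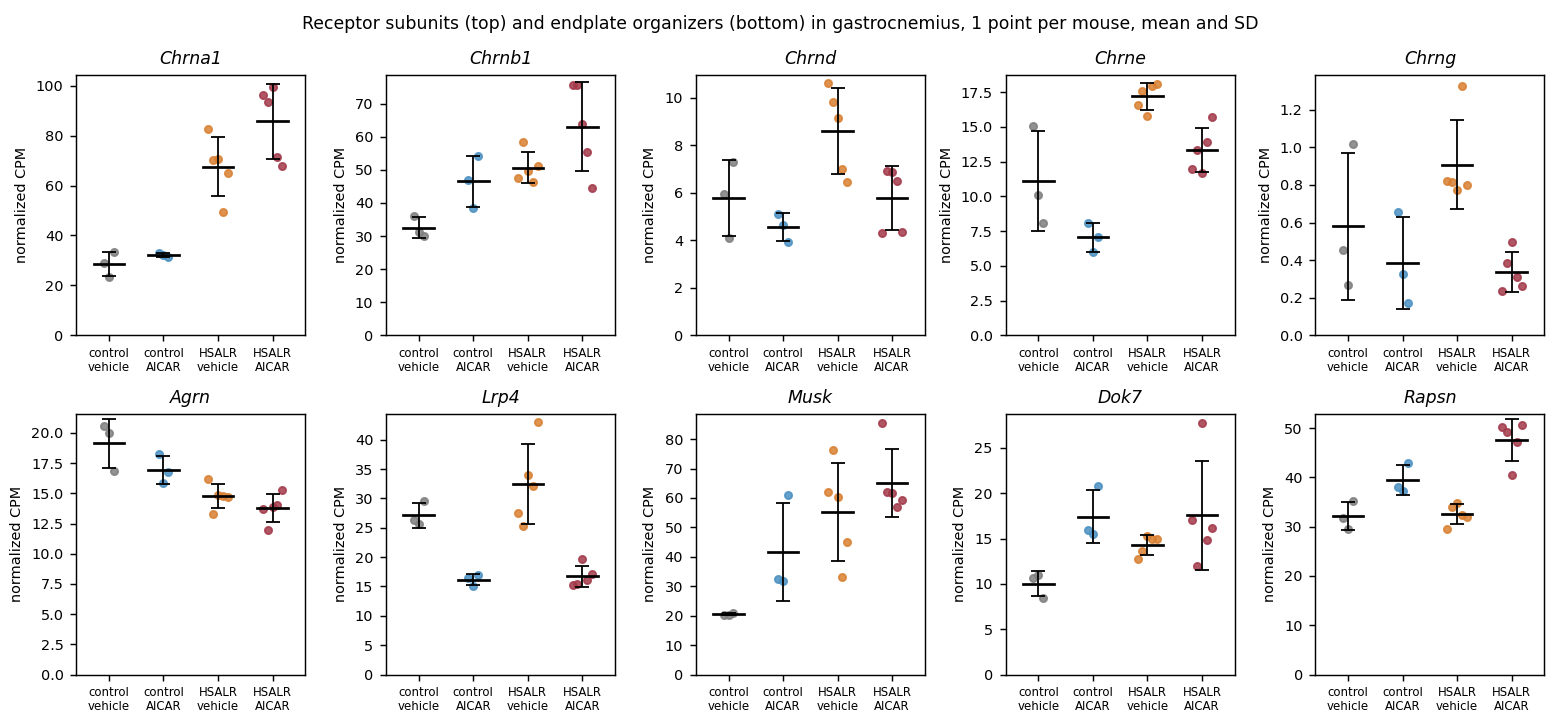
Normalized CPM of the 5 receptor subunits (top row) and the 5 organizers (bottom row) in each mouse (points), with the mean (long line) and SD (bars) of the 4 groups; each axis starts at 0. *Chrna1* lay between 49.5 and 99.7 in every HSALR mouse and between 23.5 and 33.4 in every control mouse, and *Lrp4* was at 19.7 or less in every AICAR-treated mouse and at 25.3 or more in every vehicle-treated one.

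*Chrna1*, whose product carries most of the acetylcholine binding site, had 28.8, 23.5 and 33.4 normalized CPM in the vehicle-treated control mice S445, S446 and S450. In the HSALR mice S451, S452, S453, S458 and S459 it had 82.5, 70.3, 70.8, 49.5 and 65.1. Every HSALR mouse was above every control mouse, with the lowest HSALR mouse, S458, well clear of the highest control. The means were 28.6 ± 4.96 (SD, n = 3) and 67.6 ± 12.0 (SD, n = 5), and the fitted change was 2.37-fold (log2 1.24 ± 0.17 SE, adjusted p = 6.6e-05). In bulk muscle a higher level per expressing nucleus and more expressing nuclei cannot be told apart, here and for every gene below. *Chrnb1* had 36.2, 31.3 and 30.1 in control and 47.6, 58.5, 49.7, 46.4 and 51.1 in HSALR mice. The groups did not overlap, and *Chrnb1* was 1.56-fold higher (log2 0.64 ± 0.16 SE, adjusted p = 0.0070).

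*Chrne*, the adult subunit, had 15.1, 10.1 and 8.10 normalized CPM in control mice and 16.6, 17.6, 15.8, 17.9 and 18.1 in HSALR mice after vehicle. The HSALR mice were close to each other (coefficient of variation 5.66%) and all above the controls, which were spread (32.4%), with S445 just below the lowest HSALR mouse. The change was 1.55-fold (log2 0.63 ± 0.16 SE, adjusted p = 0.0085). *Chrnd* had 5.93, 4.11 and 7.30 in control and 10.6, 9.81, 9.13, 7.00 and 6.45 in HSALR mice, with the control mouse S450 inside the HSALR range. Its difference (log2 0.58 ± 0.22 SE, 95% interval 0.105 to 1.046) did not pass the test (adjusted p = 0.066), and passed it without S450 (log2 0.78, adjusted p = 0.037) or without the HSALR mouse S459 (log2 0.66, adjusted p = 0.041). It also passed with all mice in DESeq2 (adjusted p = 0.040), the likelihood ratio test (0.0499) and with scaling to *Tbp* (0.0075). *Chrng*, the fetal subunit, had 0.455, 0.268 and 1.02 in control and 0.821, 0.815, 0.771, 1.33 and 0.800 in HSALR mice. Again S450 lay among the HSALR mice, and the difference (log2 0.65 ± 0.42 SE, 95% interval -0.26 to 1.55) did not pass (adjusted p = 0.289), while without S450 it was 1.33 (adjusted p = 0.048).

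Among the organizers, *Musk*, the kinase at the centre of the pathway, had 20.3, 20.4 and 21.1 normalized CPM in control mice, the tightest group of all (coefficient of variation 1.99%). In the HSALR mice it had 62.1, 76.4, 60.3, 33.1 and 45.0. All HSALR mice were above all controls but spread over a wide range, with S458 lowest as for *Chrna1*. *Musk* was 2.69-fold higher (log2 1.43 ± 0.26 SE, adjusted p = 8.5e-04). *Agrn*, which muscle fibres also make in a form that does not cluster receptors, had 20.6, 19.98 and 16.9 in control and 16.2, 13.3, 14.9, 14.8 and 14.7 in HSALR mice. The groups did not overlap, with a narrow gap between S450 and S451, and *Agrn* was lower by 1.29-fold (log2 -0.37 ± 0.09 SE, adjusted p = 0.0044).

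*Dok7*, the cytoplasmic activator of MuSK, had 10.6, 11.0 and 8.42 in control and 12.7, 13.7, 15.3, 15.0 and 15.0 in HSALR mice. The groups did not overlap, but the difference (log2 0.52 ± 0.20 SE) did not pass the test (adjusted p = 0.074). It passed when the HSALR mouse S460 (adjusted p = 0.0086) or S455 (adjusted p = 0.047) of the AICAR group was left out, since all groups share 1 estimate of the spread. With all mice of these groups it passed in DESeq2 (adjusted p = 0.044), with the groups compared fitted alone (0.0087) and with scaling to *Tbp* (0.019). *Lrp4*, the agrin receptor, had 26.3, 25.6 and 29.6 in control and 27.6, 25.3, 34.1, 32.2 and 43.0 in HSALR mice, with overlap (log2 0.26 ± 0.14 SE, adjusted p = 0.183). *Rapsn*, the receptor anchor, had 31.8, 29.6 and 35.1 in control and 29.6, 34.1, 34.8, 32.3 and 31.9 in HSALR mice. The ranges of *Rapsn* nearly coincided, and the 95% interval of its log2 difference was -0.16 to 0.19 (adjusted p = 0.907).

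Of the markers of other cells, the endothelial ones were lower in HSALR mice for 5 of 5 genes, with a sum of 180.3 to 231 normalized CPM against 273 to 299 in control mice. Of the 7 Schwann cell markers, none passed the test in either direction after vehicle (sums of 77.8 to 211 in HSALR and 113 to 201 in control mice). None of the 9 epidermal markers passed either, and they summed to 2.26, 3.23 and 140.6 in control and to 3.74 to 298 in HSALR mice. Their part in the differences of the receptor genes was not tested, apart from the fits without the 6 libraries. After AICAR 2 of 5 endothelial, 1 of 7 Schwann cell and 5 of 9 epidermal markers were lower in HSALR mice.

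After AICAR, HSALR muscle again had more *Chrna1* and *Chrne* and less *Agrn* than control muscle, and *Rapsn* was higher. These 4 of the 10 genes passed the test, 3 as higher and 1 as lower, where 21.8% of all genes passed, 12.2% as higher and 9.64% as lower. The groups did not overlap for 3 genes, against 26.5% of all genes. The comparison uses other mice than the one after vehicle. Leaving out the control mouse S447 brought the count over all genes from 3379 to 2214, and 2 of the 10 genes then passed. Without the 6 libraries 3 genes passed, and *Rapsn* did not (log2 0.24, adjusted p = 0.127).

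*Chrna1* had 32.9, 32.1 and 31.4 normalized CPM in the AICAR-treated control mice S447, S448 and S449, and 96.4, 93.3, 99.7, 71.5 and 67.8 in the HSALR mice S454, S455, S460, S462 and S463. The lowest HSALR mouse lay far above the highest control, and the change was 2.67-fold (log2 1.42 ± 0.17 SE, adjusted p = 3.9e-05). *Chrne* had 8.09, 6.01 and 7.05 in control and 12.0, 13.3, 11.7, 13.9 and 15.7 in HSALR mice, which was 1.89-fold higher (log2 0.92 ± 0.16 SE, adjusted p = 0.0011) without overlap. *Agrn* had 18.2, 15.9 and 16.7 in control and 13.7, 12.0, 13.9, 14.1 and 15.3 in HSALR mice. It was 1.23-fold lower (log2 -0.30 ± 0.09 SE, adjusted p = 0.022), and this call was lost without the control mouse S447 (log2 -0.24, adjusted p = 0.110) or S449 (-0.31, adjusted p = 0.051). *Rapsn* had 38.0, 37.3 and 42.9 in control and 50.3, 49.3, 40.5, 47.2 and 50.6 in HSALR mice. S460 was within the control range and the other 4 HSALR mice above it, and the 1.21-fold difference (log2 0.27 ± 0.08 SE, adjusted p = 0.027) was lost without S447, S448, S454, S455 or S463 (adjusted p = 0.053 to 0.112).

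*Musk* and *Chrnb1* came close to the threshold in the AICAR-treated mice. *Musk* had 32.5, 31.7 and 60.9 in control and 85.3, 62.1, 61.8, 56.8 and 59.3 in HSALR mice. The control mouse S449 was as high as the HSALR mice, the log2 difference was 0.64 ± 0.25 SE (adjusted p = 0.077), and without S449 it was 1.02 (adjusted p = 0.013). It also passed without the vehicle-treated HSALR mouse S458 (log2 0.64, adjusted p = 0.042). *Chrnb1* had 46.9, 38.5 and 54.2 in control and 75.7, 75.7, 63.9, 55.5 and 44.6 in HSALR mice, where S463 alone lay within the control range. Its log2 difference of 0.44 ± 0.15 SE (adjusted p = 0.053) passed without S449 (0.56, adjusted p = 0.041) or S463 (0.54, adjusted p = 0.011). With all mice, *Chrnb1* passed in 5 of the 12 other alternatives (adjusted p = 0.031 to 0.047), and *Musk* with DESeq2 (0.040) and the likelihood ratio test (0.048). *Chrnd*, *Chrng*, *Lrp4* and *Dok7* overlapped between genotypes after AICAR, with log2 differences between -0.18 and 0.35 (adjusted p = 0.283 to 0.966).

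**Figure D2:**
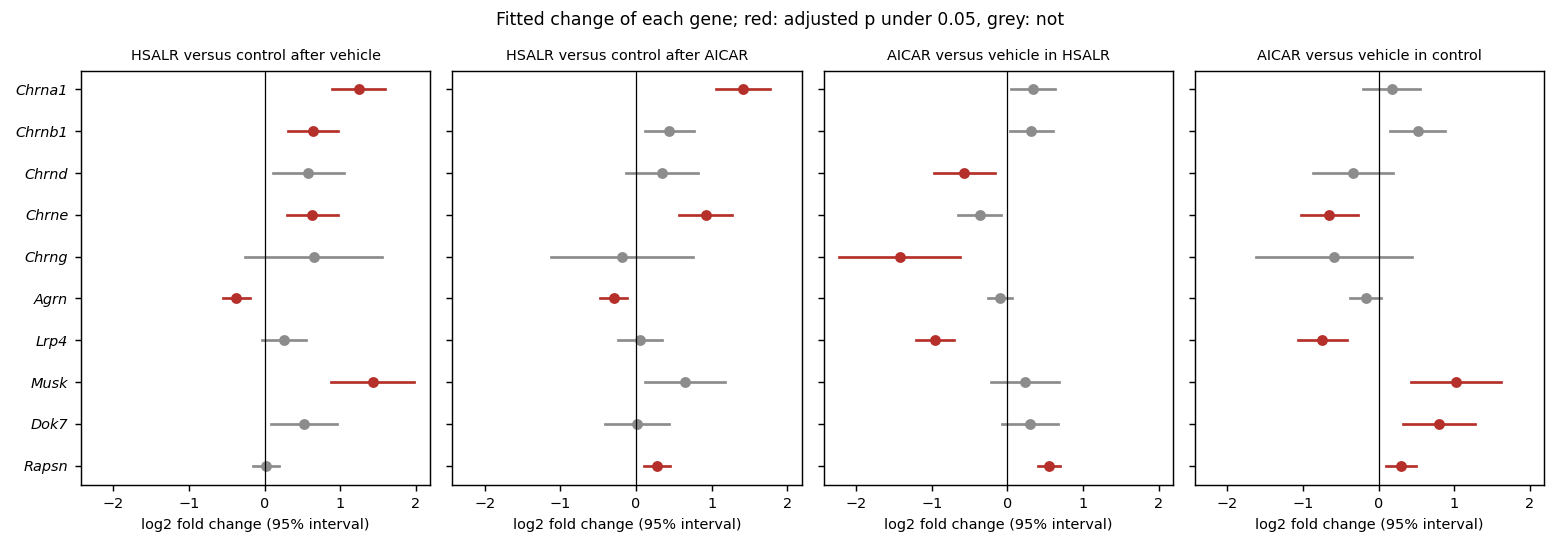
Fitted log2 fold change (point) and 95% interval (line) of each gene in the 4 comparisons, with genes past the adjusted threshold in red and the others in grey. *Chrna1* lay at 1.24 and 1.42 in the genotype comparisons, and *Lrp4* at -0.96 and -0.75 in the AICAR comparisons.

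In HSALR mice, *Lrp4* fell 1.94-fold with AICAR and *Chrng* and *Chrnd* fell too, while *Rapsn* rose. The vehicle-treated mice are those of the genotype comparison above, so these values and those are not independent. Of the 10 genes 4 passed the test, 1 as higher and 3 as lower, where 26.6% of all genes passed, 13.7% as higher and 13.0% as lower. The groups did not overlap for 4 genes (*Chrne*, *Chrng*, *Lrp4*, *Rapsn*), against 17.7% of all genes. The median log2 fold change was -0.37 over the subunits and 0.23 over the organizers, and -0.02 over all genes. *Lrp4* and *Rapsn* passed without the 6 libraries, and *Chrng* (log2 -1.28, adjusted p = 0.204) and *Chrnd* (-0.88, adjusted p = 0.104) did not. All 9 epidermal markers were lower after AICAR in HSALR mice, with sums of at most 3.11 normalized CPM, and so were 3 of 5 fibroblast markers, while 2 of 5 endothelial markers were higher. The part of these cells in the changes was not tested, other than by the fits without the 6 libraries.

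*Lrp4* had 15.2, 15.5, 19.7, 16.1 and 17.1 normalized CPM in the AICAR-treated HSALR mice, all below the 25.3 to 43.0 of the vehicle-treated ones. The change was 1.94-fold down (log2 -0.96 ± 0.12 SE, adjusted p = 5.6e-05). *Rapsn* rose in all 5 mice above the highest vehicle-treated mouse, by 1.46-fold (log2 0.55 ± 0.07 SE, adjusted p = 7.5e-05). *Chrng* had 0.233, 0.384, 0.498, 0.312 and 0.260, from 17 to 35 reads, against 52 to 109 reads per vehicle-treated mouse. No AICAR-treated mouse reached the lowest vehicle-treated one, and *Chrng* was 2.68-fold lower (log2 -1.42 ± 0.37 SE, adjusted p = 0.011). *Chrnd*, its neighbour on chromosome 1, had 4.32, 6.90, 6.89, 6.51 and 4.33. It was 1.49-fold lower (log2 -0.57 ± 0.19 SE, adjusted p = 0.036) with overlap between the groups, and the call was lost without S451, S452, S453, S454 or S463 (log2 -0.55 to -0.48, adjusted p = 0.070 to 0.092).

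*Chrne* was lower in every AICAR-treated HSALR mouse than in any vehicle-treated one, 11.7 to 15.7 against 15.8 to 18.1. Its log2 difference of -0.37 ± 0.14 SE did not pass the test (adjusted p = 0.057), and it passed without S445, S450 or S463 (adjusted p = 0.014 to 0.041) and in 8 of the 12 other alternatives. *Chrna1* (log2 0.34 ± 0.14 SE, adjusted p = 0.075) and *Chrnb1* (0.32 ± 0.13 SE, adjusted p = 0.088) did not pass either. Both passed without S463 (0.42, adjusted p = 0.039, and 0.42, adjusted p = 0.015), and *Chrna1* also without S451 (0.42, adjusted p = 0.039). *Musk* (0.23), *Dok7* (0.30) and *Agrn* (-0.10) had adjusted p of 0.451, 0.227 and 0.359. *Dok7* was spread after AICAR, with 17, 12.0, 27.8, 14.9 and 16.2 in the 5 mice, and S460 lay far above the rest.

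In control mice *Lrp4* and *Chrne* fell with AICAR, and *Musk*, *Dok7* and *Rapsn* rose. Of the 10 genes 5 passed the test, 3 as higher and 2 as lower, where 13.2% of all genes passed, 8.40% as higher and 4.77% as lower. The groups of 3 did not overlap for 6 genes, against 33.1% of all genes. Leaving out 1 mouse gave between 1 and 5 genes, with 1 gene without S445 or S449, 2 without S446 and 3 without S450. The count over all genes fell too, from 2039 to 1143 without S449, 1214 without S445 and 1344 without S448. *Lrp4* passed in each of these fits but not with scaling to *Tbp* (log2 -0.54, adjusted p = 0.071), and *Lrp4* and *Musk* were the 2 genes that passed without the 6 libraries. In this comparison 1 of 5 satellite cell markers was higher and 1 lower, 1 of 5 macrophage and leukocyte markers was higher, and no endothelial, Schwann cell, fibroblast or epidermal marker passed in the edgeR quasi-likelihood test. The part of other cells was not tested further.

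*Lrp4* had 16.5, 15.1 and 16.9 normalized CPM after AICAR against 26.3, 25.6 and 29.6 after vehicle, a decrease of 1.68-fold (log2 -0.75 ± 0.15 SE, adjusted p = 0.0053). This was close to its level in the AICAR-treated HSALR mice (means of 16.2 ± 0.93, n = 3, and 16.7 ± 1.82, n = 5). *Chrne* was 1.57-fold lower (log2 -0.65 ± 0.18 SE, adjusted p = 0.025), with the highest AICAR-treated mouse at 8.091 and the lowest vehicle-treated one at 8.097. That gap is far smaller than the spread within either group, and the call was lost without S445 (log2 -0.37, adjusted p = 0.127), S448 (-0.56, adjusted p = 0.095) or S449 (-0.65, adjusted p = 0.074), with the groups compared fitted alone (-0.66, adjusted p = 0.120), with scaling to *Tbp* (-0.44, adjusted p = 0.130) and without the 6 libraries (-0.74, adjusted p = 0.065). *Musk* was 2.03-fold higher (log2 1.02 ± 0.28 SE, adjusted p = 0.025), which S449 carried in part, since without it the change was 0.64 (adjusted p = 0.142). Without S445, S446 or S450 *Musk* kept its size (1.01 to 1.035) at adjusted p = 0.062 to 0.074.

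*Dok7* had 16.0, 15.5 and 20.8 after AICAR in control mice, all above the 3 vehicle-treated mice, and was 1.74-fold higher (log2 0.80 ± 0.23 SE, adjusted p = 0.030). It no longer passed without S445, S446, S450 or S449 (log2 0.65 to 0.87, adjusted p = 0.050 to 0.124). *Rapsn* was 1.22-fold higher (log2 0.29 ± 0.09 SE, adjusted p = 0.046), just past the threshold, and fell short of it when any of 13 of the 16 mice was left out (adjusted p = 0.051 to 0.177). *Chrnb1* did not overlap between the groups and was just short of it (log2 0.51 ± 0.17 SE, adjusted p = 0.059), and passed without S448 (0.62, adjusted p = 0.046) or S463 (0.51, adjusted p = 0.025), and with all mice in DESeq2 (adjusted p = 0.025), the likelihood ratio test (0.032) and with scaling to *Tbp* (0.019). *Chrna1*, *Chrnd*, *Chrng* and *Agrn* overlapped, with log2 differences of 0.17, -0.34, -0.59 and -0.18.

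Whether AICAR acted differently in the genotypes was tested by the difference between its effects. None of the 10 genes passed in the edgeR quasi-likelihood test, where 0.691% of all genes did, nor with the edgeR likelihood ratio test, DESeq2 or limma with voom. That share rests on 107 genes, a count that went from 15 without S448 to 371 without S460. Of the 10 genes, *Musk* and *Rapsn* had an unadjusted p under 0.05 in the edgeR quasi-likelihood test. The share of all genes at that level is not given here, so this is not read as a result. *Musk* had a log2 difference of -0.79 ± 0.35 SE (adjusted p = 0.301), that is, a smaller value in HSALR than in control mice, and *Rapsn* had 0.26 ± 0.11 SE (adjusted p = 0.309). The 95% interval for *Lrp4* was -0.62 to 0.20, and that for *Chrng*, the widest, -2.13 to 0.47.

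To compare subunits with each other, levels were divided by exon length. Per kb, *Chrnb1* was highest in every group (15.2 ± 1.49 in control and 23.6 ± 2.21 in HSALR mice after vehicle, 21.7 ± 3.64 and 29.4 ± 6.23 after AICAR, normalized CPM per kb, n = 3 and 5). *Chrna1* and *Chrne* were level with each other in control mice after vehicle, at 6.61 ± 1.15 and 6.97 ± 2.26, and their spreads overlapped. In HSALR mice after vehicle *Chrna1* was at 15.7 ± 2.77 and *Chrne* at 10.8 ± 0.61. *Chrnd* was lower, at 1.54 to 2.90 in the 4 groups, and *Chrng* lowest, at 0.176 to 0.472. Of the summed level of the 5 subunits, *Chrna1* took 21.4% ± 3.89 in control and 29.2% ± 3.76 in HSALR mice after vehicle, and 21.3% ± 2.59 and 33.2% ± 2.24 after AICAR. Between vehicle and AICAR, the share of *Chrne* went from 22.3% ± 4.95 to 12.6% ± 1.21 in control and from 20.3% ± 2.26 to 14.5% ± 3.97 in HSALR mice. That of *Chrnb1* went from 49.0% ± 2.83 to 61.2% ± 4.08 in control and from 44.2% ± 2.69 to 48.8% ± 3.84 in HSALR mice. The share of *Chrnd* went from 6.30% ± 1.73 to 4.41% ± 0.85 in control and from 5.41% ± 0.89 to 3.29% ± 0.73 in HSALR mice. These shares were not tested.

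**Figure D3:**
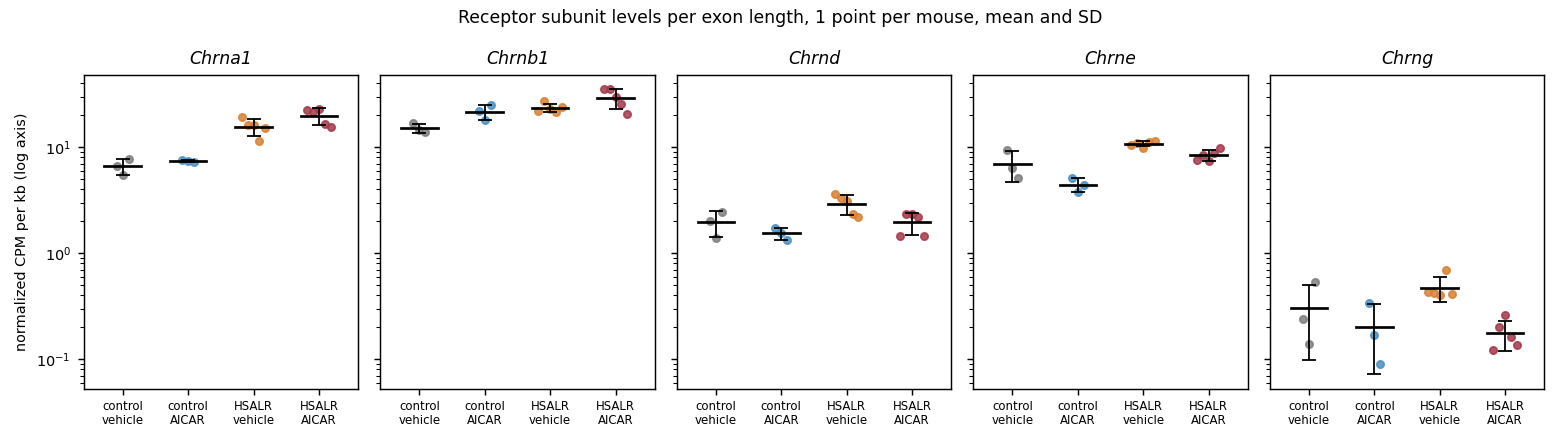
Normalized CPM per kb of exon (log axis) of the 5 subunits in each mouse (points), with mean and SD per group. *Chrnb1* lay at 14.0 to 35.2 in all 16 mice and *Chrng* at 0.0895 to 0.691.

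The fetal share of subunit RNA, taken as *Chrng* reads among *Chrng* plus *Chrne* reads, was small in every mouse. Receptor protein was not measured, so this is a share of reads from whole muscle. After vehicle it was 2.93%, 2.58% and 11.2% in the control mice S445, S446 and S450, and 4.72%, 4.44%, 4.66%, 6.89% and 4.24% in the HSALR mice. After AICAR it was 7.48%, 5.17% and 2.38% in control and 1.91%, 2.80%, 4.08%, 2.19% and 1.63% in HSALR mice. In HSALR mice the groups did not overlap, with means of 4.99% ± 1.08 after vehicle and 2.52% ± 0.97 after AICAR (SD, n = 5 each). The difference of -2.47 percentage points had p = 0.0079 in the two-sided exact permutation test, the smallest value 5 against 5 mice can give, and an adjusted p of 0.032 over the 4 comparisons. Epidermal RNA followed this contrast, since 4 of 5 HSALR libraries held it after vehicle and 0 of 5 after AICAR. S451, the vehicle-treated mouse without it, had 4.72%, above all AICAR-treated mice, and the share was not tested without the 6 libraries. The other comparisons of the share did not pass (adjusted p = 0.107 to 0.875 in the exact test), and AICAR in control mice could not have reached below p = 0.10 with 3 against 3 mice. S450 decided the control value after vehicle, since without it the HSALR mice were higher by 2.23 percentage points instead of lower by 0.573. All 5 HSALR mice then lie above the 2 controls left, the arrangement with the smallest p that so few mice allow, and the adjusted p of 0.071 in the exact test does not show that the groups are alike. At 11.2% (95% Clopper-Pearson interval 8.89% to 13.8%, counting error only) S450 lay above every other mouse. It was also the vehicle-treated control with epidermal RNA, and the part of this in the share was not tested.

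**Figure D4:**
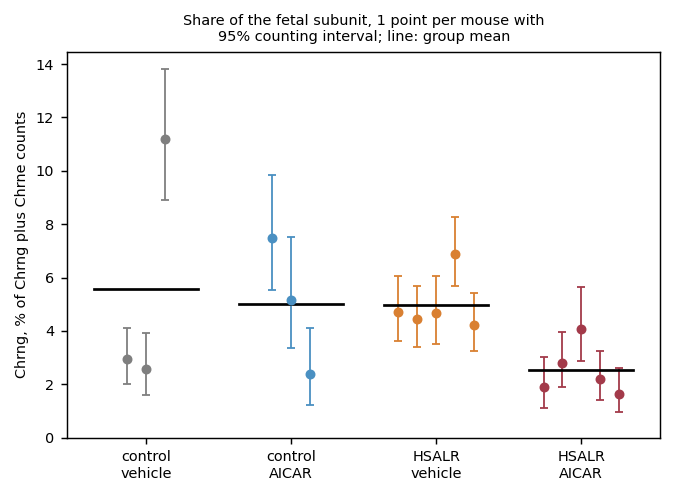
*Chrng* reads as a percentage of *Chrng* plus *Chrne* reads in each mouse (points) with the 95% Clopper-Pearson interval of the reads (bars) and the group mean (line). The 5 AICAR-treated HSALR mice lie at 1.63% to 4.08%, below the 4.24% to 6.89% of the vehicle-treated ones, while the 3 vehicle-treated controls span 2.58% to 11.2%.

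Across the 16 mice the 10 genes fell into patterns that did not follow receptor against organizer. *Musk* varied with *Chrnb1* (Pearson r = 0.870 of log2 normalized CPM) and *Chrna1* (r = 0.832), and *Chrna1* with *Chrnb1* (r = 0.800). *Chrnd* and *Chrng*, the chromosome 1 neighbours, had r = 0.769, and *Chrng* and *Lrp4* r = 0.726. *Agrn* ran against *Chrna1* (r = -0.848) and *Chrnb1* (r = -0.805), and *Lrp4* against *Rapsn* (r = -0.781). These values describe 16 libraries that share their groups, and no p is given. Among all tested genes, those most like a member were *Pon2* for *Chrna1* (r = 0.986), followed by *Arpp19* (0.970) and *St6galnac4* (0.954), and *Cdk18* (0.965), *Ttc25* (0.959) and *Tollip* (0.948) for *Rapsn*. *Lrp4* was most like *Lrrc74b* (0.952), *Prss55* (0.945) and *Adssl1* (0.934). The closest genes to the others were *Myo18b* to *Musk* (0.934), *Ola1* to *Chrnb1* (0.933), *Dyrk1b* to *Chrne* (0.929), *Alx4* to *Chrng* (0.925), *Hoxa3* to *Agrn* (0.909), *Serpina9* to *Chrnd* (0.894) and *Creb3l2* to *Dok7* (0.893).

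**Figure D5:**
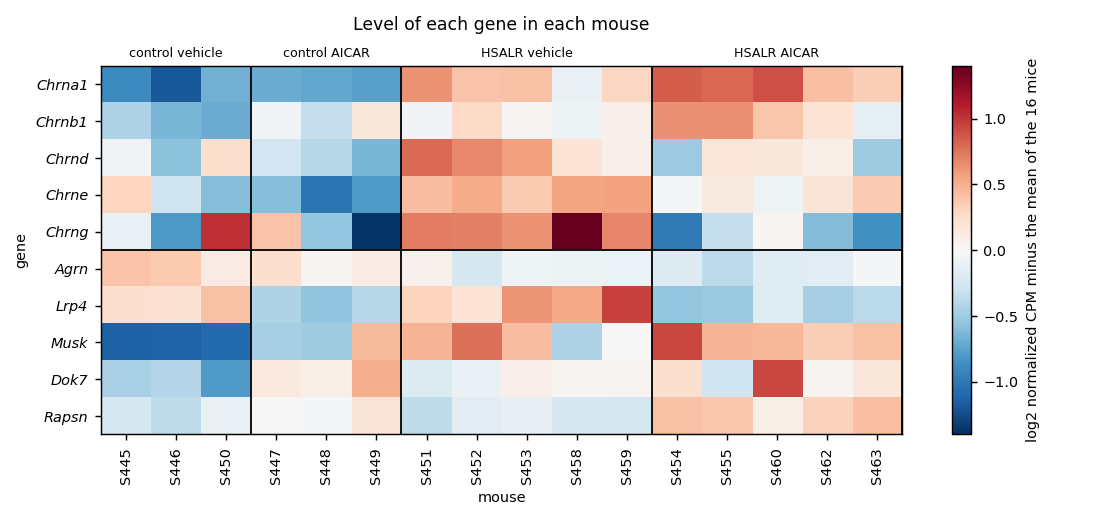
Log2 normalized CPM of each gene (rows) in each mouse (columns, ordered by group), minus the mean of that gene over the 16 mice. *Chrna1* is above its mean in 9 of 10 HSALR mice and below it in all 6 control mice, and *Lrp4* is below its mean in all 8 AICAR-treated mice.

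The partners of these genes at the endplate were counted by list, and no list was tested as a whole. The shares of all genes that passed were 26.9% between genotypes after vehicle, 21.8% after AICAR, 26.6% with AICAR in HSALR and 13.2% in control mice. Beside these, in the same order, the shares were 25.0%, 41.7%, 8.33% and 25.0% of 12 other genes of endplate nuclei, and 19.0%, 19.0%, 23.8% and 19.0% of 21 genes downstream of MuSK or in receptor anchoring. They were 27.3%, 54.5%, 36.4% and 18.2% of 11 genes of the dystroglycan complex and lamina, 40%, 26.7%, 40% and 13.3% of 15 transcriptional regulators, and 45.5%, 9.09%, 45.5% and 27.3% of 11 genes induced by denervation. Several of these lie close to the share of all genes, and with lists this short 1 gene moves a share by several percentage points. Of 12 other genes of endplate nuclei, 1 was higher and 2 were lower in HSALR mice after vehicle, and 1 was higher and 4 were lower after AICAR. With AICAR 1 was higher in HSALR mice, and 2 were higher and 1 lower in control mice. *Ncam1*, a cell adhesion molecule at the synapse, was 2.23-fold higher in HSALR mice after vehicle (18.3 ± 5.24 against 40.9 ± 8.86 normalized CPM, adjusted p = 2.6e-04). The utrophin gene *Utrn* (log2 -0.43, adjusted p = 0.0029) and the sodium channel gene *Scn4a* (-0.48, adjusted p = 0.0038) were lower, and with scaling to *Tbp* neither passed (-0.16, adjusted p = 0.423, and -0.20, adjusted p = 0.324). *Ache*, the esterase of the synaptic cleft, rose 2.33-fold with AICAR in control mice (28.2 ± 5.66 to 65.8 ± 12.5, adjusted p = 8.7e-04), and had log2 0.39 in HSALR mice (adjusted p = 0.054). The difference between its AICAR effects did not pass the edgeR quasi-likelihood test (log2 -0.83, adjusted p = 0.118). After AICAR *Ache* was lower in HSALR than in control mice (log2 -0.72, adjusted p = 0.0057). *Colq*, which anchors the esterase, had log2 -0.42 in HSALR mice after vehicle (adjusted p = 0.179). *Ufsp1* rose with AICAR in both genotypes (log2 0.42 in HSALR and 0.98 in control mice, adjusted p = 0.021 and 0.0013). With scaling to *Tbp* it did not pass the edgeR quasi-likelihood test in HSALR mice (log2 0.30, adjusted p = 0.142).

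Among 6 neuregulin receptor and ETS genes tested, *Erbb2* was higher in HSALR mice after vehicle (log2 0.48, adjusted p = 0.032), and 3 fell with AICAR in HSALR mice. These were *Erbb2* (-0.61, adjusted p = 0.0039), *Erbb3* (-0.57, adjusted p = 0.015) and *Gabpb1* (-0.21, adjusted p = 0.030). None passed in the other pair of comparisons. With AICAR in control mice *Erbb3* had log2 -0.62, just short of the threshold (edgeR quasi-likelihood test, adjusted p = 0.057). The difference between its AICAR effects was log2 0.05 (adjusted p = 0.952). The ETS factors *Etv5* and *Gabpa* had log2 values between -0.22 and 0.02 in all 4 (adjusted p = 0.051 to 0.931). Of 21 genes downstream of MuSK or in receptor anchoring, 3 were higher and 1 lower in HSALR mice after vehicle, the same numbers after AICAR, 4 were higher and 1 lower with AICAR in HSALR mice, and 4 were higher in control mice. The kinase genes *Pak1* (log2 1.04, adjusted p = 1.2e-06) and *Src* (1.00, adjusted p = 2.3e-05) were higher in HSALR mice after vehicle, without overlap. *Pdzrn3*, whose product marks MuSK for degradation, had 204, 200.6 and 219 normalized CPM in control and 128, 127, 119, 121 and 130 in HSALR mice after vehicle (log2 -0.74, adjusted p = 4.6e-04). After AICAR its genotype difference did not pass the edgeR quasi-likelihood test (log2 -0.23, adjusted p = 0.208). The difference between its AICAR effects did not pass either (0.51, adjusted p = 0.195). *Abl1* rose with AICAR in HSALR (log2 0.46, adjusted p = 0.0039) and control mice (0.44, adjusted p = 0.038). With scaling to *Tbp* it did not pass the edgeR quasi-likelihood test in HSALR mice (log2 0.34, adjusted p = 0.068). In control mice it did not pass with upper-quartile scaling (0.38, adjusted p = 0.061) or with the groups compared fitted alone (0.43, adjusted p = 0.119).

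In the dystroglycan complex and the synaptic basal lamina, 2 of 11 genes were higher and 1 lower in HSALR mice after vehicle, 2 and 4 after AICAR, 4 were higher with AICAR in HSALR and 2 in control mice. The syntrophin gene *Sntb1* was 3.19-fold higher in HSALR mice after vehicle (6.88 ± 0.85 against 22.0 ± 3.94, adjusted p = 1.6e-06). *Lama5*, a laminin chain of the synaptic cleft, rose 1.91-fold with AICAR in HSALR mice (adjusted p = 5.5e-05) and 1.65-fold in control mice (adjusted p = 0.0054). The median log2 fold changes of these 4 lists after vehicle were all at or below 0, the lowest at -0.16, beside 0.60 for the 10 genes.

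Of 15 transcriptional regulators of synaptic genes, 4 were higher and 2 lower in HSALR mice after vehicle, 4 were higher after AICAR, 3 were higher and 3 lower with AICAR in HSALR mice, and 2 were lower in control mice. *Myog*, the E-box factor myogenin, had 11.5, 17.7 and 12.9 normalized CPM in control and 31.5, 23.8, 22.7, 21.7 and 21.2 in HSALR mice after vehicle (1.72-fold, adjusted p = 0.011). With AICAR it fell to 7.36 to 12.5 in HSALR mice (2.59-fold lower, adjusted p = 8.0e-05) and was 2.03-fold lower in control mice (adjusted p = 0.0093). With scaling to *Tbp*, *Myog* did not pass the edgeR quasi-likelihood test in control mice (log2 -0.83, adjusted p = 0.061). *Myod1* followed it, 2.62-fold higher in HSALR mice after vehicle (adjusted p = 0.019) and 6.84-fold lower with AICAR (44.3 ± 16.4 to 6.49 ± 2.94, adjusted p = 8.0e-05). *Myf6* was 1.87-fold higher in HSALR mice after vehicle (adjusted p = 0.0029). *Hdac4*, a repressor of synaptic gene repressors, had log2 0.37 in HSALR mice after vehicle (adjusted p = 0.131) and rose 1.66-fold with AICAR in them (adjusted p = 0.0025). With AICAR it had log2 0.41 in control mice (edgeR quasi-likelihood test, adjusted p = 0.182). After AICAR it was higher in HSALR mice (log2 0.70, adjusted p = 0.0115), a call lost without S447 (0.55, adjusted p = 0.069). *Dach2*, one of the genes *Hdac4* represses, was 1.88-fold lower in HSALR mice after vehicle (adjusted p = 0.0496), just past the threshold. With all mice of these groups the edgeR quasi-likelihood call was lost with robust estimation (adjusted p = 0.051), total counts or no filter (0.056 for both). It was also lost with the groups compared fitted alone (0.097) and with scaling to *Tbp* (log2 -0.60, adjusted p = 0.170). *Tbp*, the reference gene of the qPCR in this study, was itself 1.21-fold lower in HSALR mice after vehicle (6.47 ± 0.56 against 5.36 ± 0.44, adjusted p = 0.041). This call was lost with the edgeR likelihood ratio test (adjusted p = 0.065). In the quasi-likelihood test it was lost with no filter (0.062), with the groups compared fitted alone (0.073) and with total counts (0.089).

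Of 11 genes that denervation induces, *Chrng* among them, 5 were higher in HSALR mice after vehicle, with a median log2 fold change of 0.78, and 1 was higher after AICAR, with a median of 0.59. With AICAR 1 was higher and 4 were lower in HSALR mice, and 1 was higher and 2 lower in control mice. *Runx1* had 3.51, 4.45 and 4.99 normalized CPM in control and 29.3, 31.7, 28.3, 17.1 and 19.1 in HSALR mice after vehicle, 5.80-fold more (adjusted p = 1.9e-05). *Cdkn1a* was 3.02-fold higher (adjusted p = 0.0027) and 2.23-fold lower with AICAR in HSALR mice (adjusted p = 0.0066). *Fbxo32*, an atrophy gene, had log2 -0.73 in HSALR mice after vehicle (adjusted p = 0.066) and rose 2.92-fold with AICAR in them (adjusted p = 4.8e-04). In control mice it had log2 0.07 with AICAR (edgeR quasi-likelihood test, adjusted p = 0.922). The difference between its AICAR effects did not pass (log2 1.48, adjusted p = 0.111).

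Of 11 nicotinic subunits outside the muscle receptor, 4 were expressed enough to be tested. *Chrna9*, known from the efferent synapse of cochlear hair cells, differed most between genotypes among them. It had 0.0854, 0.344 and 0.598 normalized CPM in the vehicle-treated controls (6, 27 and 44 reads) and 12.7, 18.03, 13.2, 7.87 and 2.55 in the HSALR mice (912, 1327, 889, 646 and 191 reads). Every HSALR mouse was above every control, and the change was 31.3-fold (log2 4.97 ± 0.77 SE, adjusted p = 2.6e-04). After AICAR it had 1.12, 0.563 and 1.10 in control and 27.2, 19.2, 5.18, 9.91 and 9.97 in HSALR mice (15.4-fold, adjusted p = 0.0011). *Chrna9* kept its side of the threshold in every alternative run for both comparisons, where the log2 fold change was 3.58 to 5.83. *Chrna10*, its usual partner, had at most 8 reads in any library. *Chrnb2* was 1.78-fold lower in HSALR mice after vehicle (adjusted p = 0.030) and 1.61-fold higher with AICAR in HSALR mice (adjusted p = 0.044), at means of 0.354 to 0.814 normalized CPM.

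Not all of these calls on partner genes held when libraries were left out. Without the 6 libraries with epidermal RNA, *Ncam1*, *Scn4a*, *Pak1*, *Src*, *Sntb1*, *Runx1* and *Chrna9* passed the genotype comparison after vehicle, and *Utrn*, *Erbb2*, *Pdzrn3*, *Myod1*, *Myog*, *Dach2*, *Myf6*, *Cdkn1a*, *Chrnb2* and *Tbp* did not (adjusted p = 0.101 to 0.593). With 1 HSALR vehicle mouse left, most of these were near or above their size with all mice, such as *Myog* (log2 1.10), *Cdkn1a* (1.92), *Myf6* (0.90), *Pdzrn3* (-0.67) and *Tbp* (-0.26), while *Utrn* (-0.20) and *Chrnb2* (-0.42) were smaller. Of the changes with AICAR in HSALR mice, those of *Lama5*, *Myog* and *Myod1* passed, and those of *Ufsp1*, *Erbb2*, *Erbb3*, *Gabpb1*, *Abl1*, *Cdkn1a*, *Fbxo32*, *Chrnb2* and *Hdac4* did not (adjusted p = 0.063 to 0.856). Here too *Abl1* (0.65), *Gabpb1* (-0.33), *Cdkn1a* (-1.25), *Ufsp1* (0.44), *Hdac4* (0.67) and *Erbb2* (-0.56) were close to or above the change over all 16 libraries, *Fbxo32* (1.19) and *Erbb3* (-0.46) were smaller, and *Chrnb2* was at 0.14. In control mice those of *Abl1* (0.43), *Myod1* (-1.99) and *Myog* (-0.99) did not (adjusted p = 0.072 to 0.141), with sizes close to those with all mice. Some calls after vehicle were also lost on leaving out 1 mouse. *Erbb2* kept its size (log2 0.45 to 0.49) but did not pass without S445, S446, S450, S453 or S459 (adjusted p = 0.057 to 0.096). *Myod1* did not pass without S445 (1.399, adjusted p = 0.064) or S450 (1.15, adjusted p = 0.088), nor *Myog* without S445 (0.66, adjusted p = 0.066). The same held for *Chrnb2* without S445, S446, S452 or S459 (-0.83 to -0.74, adjusted p = 0.052 to 0.116), *Tbp* without any of 6 mice (-0.28 to -0.23, adjusted p = 0.052 to 0.147) and *Dach2* without any of 13 (-0.96 to -0.61, adjusted p = 0.054 to 0.242). With AICAR in HSALR mice, *Ufsp1* was lost without any of 3, *Gabpb1* without any of 5 and *Chrnb2* without any of 10 mice. With AICAR in control mice, *Myod1* was lost without S448 or S449, and *Abl1* without S445, S450 or S449, the last of which brought it from log2 0.44 to 0.25.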

How the data were processed

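Total RNA of powdered *gastrocnemius* muscle was sequenced by the authors (TruSeq stranded mRNA libraries, single-end reads) and mapped to mm10 with STAR 2.5.2a. Reads starting within any RefSeq exon were counted per gene with QuasR, with 1 location kept for reads that map to several. The deposited table holds these raw counts per Entrez gene and the exon length of each gene. Whether counting used the strand is not given in the sources used here. Of 24454 genes, 24374 were matched to RefSeq for a symbol, and 80 were left out of lists by name. Counts totalled 64890014 to 81987726 per library (median 73021286). The groups were taken from the labels, which call the vehicle CTRL.

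Counts were tested with edgeR 4.0.16 (R 4.3.3), using filterByExpr, TMM factors (0.906 to 1.06), the quasi-likelihood test with 1 mean per group over all 16 libraries, and Benjamini-Hochberg adjustment over 15487 genes at a threshold of 0.05. Each difference in the *Chrng* share was tested with a two-sided exact permutation test over mice. Likeness is Pearson's r of log2 CPM with a prior count of 2, and the 3 closest genes to each gene were considered. The 26 pairs of mice within groups differed by more than sampling noise (chi-square per degree of freedom of 24.0 to 134.5), so each is 1 replicate. In the main fit a p-value sets a difference against the spread between mice within groups, with 1 estimate shared by the 4 groups. In the permutation test it sets the difference against all splits of the mice. Alternatives were voom (limma 3.58.1), DESeq2 1.42.0, a likelihood ratio test in edgeR, scaling by *Tbp*, total counts, RLE or upper quartiles, other filters, robust estimation, fits of the groups compared, and each mouse left out. The fit without the 6 libraries in which *Krt14* exceeded 1 normalized CPM was chosen after seeing the data. The procedure was tested on simulated data.

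The 10 genes and all gene lists were chosen with earlier results of these data known. Beyond the 10, genes were named from each list if they passed the genotype test after vehicle or the AICAR test in HSALR mice, up to the 4 largest per list and comparison, together with *Ache*, *Colq*, *Utrn*, *Etv5*, *Gabpa*, *Myog*, *Hdac4*, *Dach2*, *Runx1*, *Ncam1* and *Tbp*. Some genes that met this rule are not reported here. *Krt14* and *Chrna10* were named after their values were seen. The comparisons share groups of mice, so their values are given side by side only.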

Additional observations from a re-analysis of the deposited data

Results flagged for a closer look

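Of 22 groups of 5 values from the 10 genes and the *Chrng* share, 3 held a mouse set apart from the others of its group by more than the 95% critical value of Dixon's test, where chance gives 1.1. The vehicle-treated HSALR mouse S458 had 1.33 normalized CPM of *Chrng*, against 0.771 to 0.821 in the other 4, and a *Chrng* share of 6.89%, against 4.24% to 4.72%. These are the same reads and count as 1 observation, and S458 was also the lowest of its group for *Chrna1* and *Musk*. The AICAR-treated HSALR mouse S454 had 85.3 normalized CPM of *Musk*, against 56.8 to 62.1 in the other 4.

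*Runx1*, a factor induced by denervation, was the gene of the lists whose AICAR effect differed between the genotypes (log2 difference -1.85, edgeR quasi-likelihood test, adjusted p = 0.036). With AICAR it rose 3.20-fold in control mice, with 3.51 to 4.99 normalized CPM after vehicle and 10.1 to 16.7 after AICAR (adjusted p = 0.0026), and had log2 -0.17 in HSALR mice (adjusted p = 0.620). The call was lost when any of 12 of the 16 mice was left out (adjusted p = 0.054 to 0.115), with limma and voom (adjusted p = 0.081) and without the 6 libraries with epidermal RNA (log2 difference -2.14, adjusted p = 0.259).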

How the results depend on the processing

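Over the alternatives for the log2 fold changes of the 10 genes, 1271 values kept direction and side of the threshold, 56 fell below it, 43 passed it and 20 turned direction. The number of the 10 genes past the threshold moved by over 1.5 times as follows. After vehicle it was 8 with scaling to *Tbp* and 2 without the 6 libraries with epidermal RNA. Between genotypes after AICAR it was 2 with scaling to *Tbp*, and 2 to 5 on leaving out 1 mouse. With AICAR it was 2 without the 6 libraries in HSALR mice, and in control mice 2 without them, 2 when the groups compared were fitted alone, and 1 to 5 on leaving out 1 mouse. *Tbp* was itself lower in HSALR mice after vehicle, a call that several alternatives lost. Scaling to *Tbp* shifted the median of all genes by 0.27 there and by -0.04, -0.11 and 0.20 in the other comparisons. After vehicle *Agrn* then no longer passed (log2 -0.11, adjusted p = 0.569) and *Rapsn* did (0.29, adjusted p = 0.017), as did *Lrp4* (0.54, adjusted p = 0.025). Scaling to *Tbp* also ended the calls of *Lrp4* (-0.54, adjusted p = 0.071) and *Chrne* (-0.44, adjusted p = 0.130) with AICAR in control mice, and of *Agrn* (-0.34) and *Rapsn* (0.23) between genotypes after AICAR (adjusted p = 0.118 for both). The share of all calls that were higher was 57.2%, 55.8%, 51.3% and 63.8% in the 4 comparisons. It became 95.4%, 48.8%, 25.2% and 94.3% with *Tbp*, 31.0% and 50.7% for AICAR in HSALR and control mice with total counts, and 45.1% in control mice with upper-quartile factors. The counts of all genes past the threshold without the 6 libraries were 904, 899, 697 and 0 (after vehicle, AICAR in HSALR, AICAR in control, and the difference between AICAR effects), against 1396 after AICAR and 381 for the difference with *Tbp*, 1164 for AICAR in control mice fitted alone, and 536 and 322 for the difference with DESeq2 and the likelihood ratio test. On leaving out 1 mouse the count for the difference was 15 to 371.

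Some values turned direction, not all of them near 0 in the main fit. There *Chrng* with AICAR in control mice was at log2 -0.59. The difference between AICAR effects was 0.29 for *Chrne* and 0.26 for *Rapsn*. On leaving out 1 mouse the log2 ranges were -0.040 to 0.083 for *Rapsn* after vehicle, -0.21 to 0.16 for *Dok7*, -0.53 to 0.43 for *Chrng* and -0.017 to 0.081 for *Lrp4* between genotypes after AICAR, and -1.20 to 0.092 for *Chrng* with AICAR in control mice. Without the 6 libraries *Rapsn* after vehicle was -0.057, *Dok7* after AICAR -0.063 and *Chrng* with AICAR in control mice 0.19, and the difference between AICAR effects was -0.24 for *Chrna1* and -0.0096 for *Agrn*. With *Tbp* that difference was -0.15, -0.044, -0.065 and -0.23 for *Chrna1*, *Chrne*, *Rapsn* and *Agrn*, and *Agrn* with AICAR in control mice was 0.024. With voom *Dok7* between genotypes after AICAR was -0.036. The *Chrng* share differed by -2.06 to 2.23 percentage points after vehicle, by -2.86 to -1.99 with AICAR in HSALR mice (adjusted p = 0.032 to 0.063, exact permutation test) and by -2.05 to 2.25 in control mice on leaving out 1 mouse. The causes were not tested. No paired analysis was possible because every mouse has a number of its own and none is shared between groups. With 12 to 109 reads, counting error limits what can be said of *Chrng*.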

Other observations

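Other marker lists were counted in the same fits. Of 4 adult myosin heavy chain genes, *Myh1* was higher (4383 and 12560 normalized CPM in control and HSALR mice after vehicle, adjusted p = 4.1e-05) and *Myh7* lower (log2 -1.37) in HSALR mice, and neither passed with AICAR in either genotype. These 2 were named after their values were seen. Of 5 satellite cell markers, 1 was higher in HSALR mice after vehicle and 2 after AICAR, and 1 was higher and 1 lower with AICAR in each genotype, with sums of 25.7 to 36.5 normalized CPM over all libraries. Of 5 macrophage and leukocyte markers, 2 were higher in HSALR mice after vehicle, with sums of 63.4 to 77.7 against 47.0 to 64.4 in control mice, and with AICAR 1 was higher and 1 lower in HSALR mice and 1 was higher in control mice. No adipocyte marker of 5 passed in any comparison by the edgeR quasi-likelihood test.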
